A study of Mus musculus with 25 samples.

Results

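The 35 genes described here are regulators of hematopoietic stem cells (HSC), the marrow cells that renew themselves and feed all blood lineages. They were taken from a list of stem cell transcription factors and related genes and matched by symbol to the Ensembl gene IDs of a table of read counts. All 35 of the 35 listed genes were among the 13641 genes of that table, and all 35 were tested. HSC were sorted as Lin−Sca1+cKit+CD48−CD150+ from the marrow of mice that had been engrafted with donor marrow. The groups are named Il1bKO (VF;IL-1b-/-), Il1r1KO (VF;IL-1R1-/-), VF and WT, where VF marks a tamoxifen-inducible JAK2 mutant construct. Il1bKO donors lacked in addition the cytokine IL-1β, and Il1r1KO donors lacked its receptor IL-1R1. All 4 genotypes carry SclCre and GFP per their labels, SclCre being a Cre recombinase named for the Scl (Tal1) gene, and all mice were given tamoxifen, started 16 weeks after engraftment. Mice were killed 4 weeks after tamoxifen began (3 libraries each of Il1bKO, Il1r1KO and VF) or 2 weeks after it began (4 libraries each of Il1bKO, Il1r1KO, VF and WT), and there was no WT group at 4 weeks. The labels call each library a sample and do not say that each came from a different mouse, so p-values measure the spread between these libraries. The age of the animals is not given in the sources used here.

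Stem cell identity rests on a small set of transcription factors that bind together at shared enhancers. Mecom, Prdm16, Hlf and Meis1 keep long-term stem cells in place, Gata2, Erg, Lyl1 and their partners hold the multipotent state, and HOX proteins work with Meis1 on DNA. The FOXO factors act when growth factor signalling through PI3K and AKT is low, and they keep stem cells out of cycle and limit oxidative stress. JAK2 is the kinase below the thrombopoietin and erythropoietin receptors, its activating mutation drives myeloproliferative neoplasms, and IL-1β is an inflammatory cytokine that pushes stem cells toward myeloid output.

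Sequencing gave between 21990959 and 40178173 counts for each library, spread over 11871 to 13491 detected genes. The libraries labelled WT had 0 to 1 CreERT2 reads although their label carries the Cre, against 5382 to 32987 reads in the 21 mutant libraries, and their pEGFP reads were uneven at 27442, 14960, 83 and 1345. Il1b had 0 reads in all 7 Il1bKO libraries. It also had 0, 4, 0 and 0 reads in WT, and 0, 30, 4 and 6 reads in VF at 2 weeks. A library with 0 Il1b reads therefore does not by itself check the Il1bKO label. Whole-gene counts of Il1r1 (271 to 882 reads in Il1r1KO) cannot check the receptor label either. Of the 13 neutrophil and monocyte, 13 erythroid and 10 megakaryocyte marker genes in the table, none was without reads in all libraries of a group, apart from the megakaryocyte gene Mpig6b in Il1bKO at 4 weeks. Il1bKO_4w 5 (libraries are named by group, week and number) had the most counts and the fewest genes, 11871, and VF_4w 6 had a summed megakaryocyte marker level of 2420 CPM, against 699 and 565 in its replicates. VF_4w 5 had a summed macrophage and dendritic marker level of 262 CPM, against 23.1 and 49.3 CPM in its replicates. It was the highest library of its group in 22 of the 35 genes. Some results that turn on these libraries are given with and without them. The 4 week and the 2 week libraries were processed as 2 batches, so time and batch cannot be told apart.

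The promoters of members that differed most between the times are shown first, and a link of their sequence to those differences was not tested. RefSeq windows (build GRCm38.p6) of 250 bases before to 50 bases after a start were available for 29 of the 35 genes, in 43 windows. Among 20 pairs of windows of different genes, from members with an adjusted p under 0.01 between the times, the longest run of identical bases was 24 bases long. It lay in the first Mecom window (chr3:30509710-30510009, minus strand) and the Prdm16 window (chr4:154636824-154637123, minus strand), and it is in capitals in these 2 lines:
Mecom: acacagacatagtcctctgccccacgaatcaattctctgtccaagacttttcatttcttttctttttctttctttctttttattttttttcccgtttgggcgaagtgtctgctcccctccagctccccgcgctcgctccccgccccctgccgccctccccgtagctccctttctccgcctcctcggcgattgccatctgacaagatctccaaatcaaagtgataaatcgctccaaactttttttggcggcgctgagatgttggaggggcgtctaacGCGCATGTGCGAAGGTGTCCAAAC
Prdm16: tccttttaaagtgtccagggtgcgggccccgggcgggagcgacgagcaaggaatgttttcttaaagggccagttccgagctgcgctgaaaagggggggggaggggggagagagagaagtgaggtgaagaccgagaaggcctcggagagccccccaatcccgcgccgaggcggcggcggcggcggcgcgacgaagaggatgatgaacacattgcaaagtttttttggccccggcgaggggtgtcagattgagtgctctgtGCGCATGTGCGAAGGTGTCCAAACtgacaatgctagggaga
The run began 27 bases after the start in Mecom and 10 bases after it in Prdm16, and no other of 32851 promoter windows held it on either strand. Mecom and Prdm16 encode related PR-domain zinc finger proteins. The run of 24 bases reached the end of the Mecom window, so it may be longer outside it. The next longest run between 2 genes was 16 bases, in Fgd5 and Foxo1, and was nearly all A. Txnip (chr3:96557707-96558006, plus strand) and Meis1 (chr11:19018920-19019219, minus strand) are shown because they alone among these members held a searched motif, which is in capitals:
Txnip: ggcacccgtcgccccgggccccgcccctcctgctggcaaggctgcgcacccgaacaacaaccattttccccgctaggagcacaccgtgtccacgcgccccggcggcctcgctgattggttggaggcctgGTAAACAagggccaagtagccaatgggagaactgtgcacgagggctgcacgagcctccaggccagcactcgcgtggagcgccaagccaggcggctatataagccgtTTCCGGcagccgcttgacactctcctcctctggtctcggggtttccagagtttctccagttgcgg
Meis1: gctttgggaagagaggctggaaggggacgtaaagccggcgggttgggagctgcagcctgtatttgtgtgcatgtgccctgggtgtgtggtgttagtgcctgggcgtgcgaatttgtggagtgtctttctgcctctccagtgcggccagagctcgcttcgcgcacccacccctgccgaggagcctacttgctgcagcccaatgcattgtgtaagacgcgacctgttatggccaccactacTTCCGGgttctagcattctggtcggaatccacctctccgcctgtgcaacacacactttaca
Txnip held the FOXO motif GTAAACA 121 bases before the start and the ETS motif CCGGAA on the opposite strand 15 bases before it, and the 2 matches do not overlap. In Meis1 the ETS motif lay on the opposite strand 11 bases before the start. Over both strands the FOXO motif was in 3.6% and the ETS motif in 14.9% of all windows. Of the 43 member windows 1 held the FOXO motif and 5 the ETS motif. The STAT motif TTCNNNGAA was in 4 member windows (8.3% of all windows), the GATA motif AGATAA in 2 (11.2%) and the E-box CACGTG in 1 (7.2%), and motifs of different names were allowed to overlap. A match is only a match of letters.

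Levels differed widely between the members. CPM, the counts of a gene relative to its library's total, were scaled by TMM factors, and levels are compared between genes as mean CPM per kb of exon over all 25 libraries. Txnip was highest at 208 CPM per kb, followed by Mycn (138), Gfi1b (94.8), Gata2 (91.0), Etv6 (62.3) and Meis1 (58.4). Txnip is the thioredoxin-interacting protein, which restrains glucose uptake, and Mycn is a MYC family factor. At the low end stood Hoxb4 (3.31), Hmga2 (2.44) and Satb1 (0.148), and Satb1 had 0 to 295 reads per library. Steady members were Etv6, Gata2 and Meis1, whose coefficients of variation over the 25 libraries were 9.58%, 9.86% and 11.9%. Their SD within groups on the log2 scale lay at percentiles 5.8, 4.5 and 1.1 of all genes, so that small differences in them were measured more finely than in most genes. Id1 (91.5%) and Satb1 (93.1%) varied most. Because libraries were unstranded, reads of antisense genes cannot be told apart from those of Hoxb3 (52.9% of its exon bases shared with Hoxb3os), Hoxb2 (27.3%), Hoxa7 (20.4% with Hoxaas3) and Txnip (19.4% with Gm15441).

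**Figure D1:**
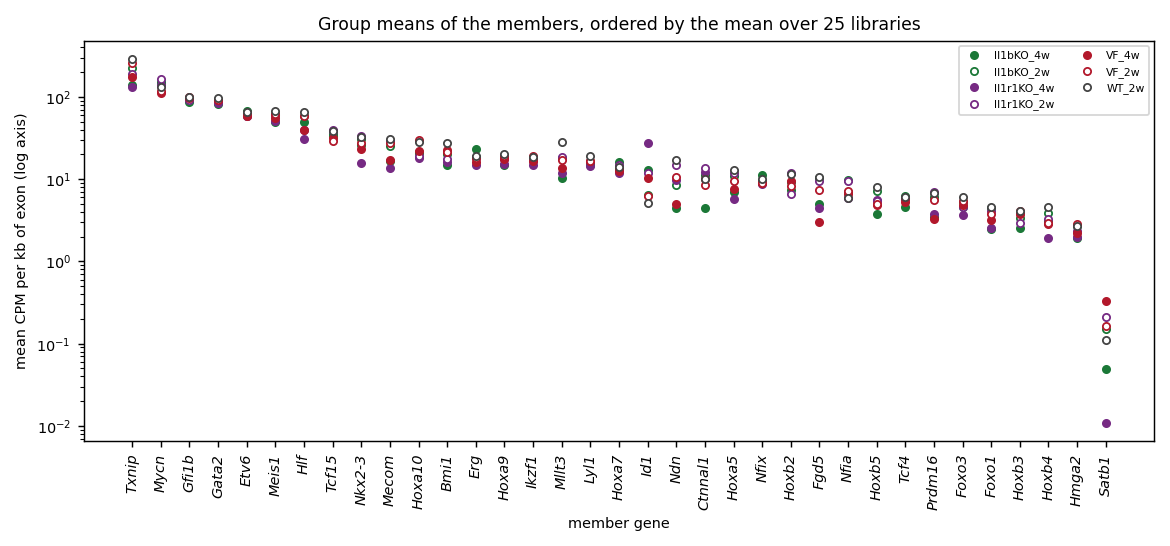
Mean level of each of the 35 genes in each of the 7 groups, in CPM per kb of exon on a log axis; filled points are 4 weeks and open points 2 weeks, and genes are ordered by the mean over 25 libraries. Group means of most genes lie close together against a span between genes from 0.148 (Satb1) to 208 (Txnip).

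Between 4 and 2 weeks, several stem cell factors, led by Mecom, Prdm16, Fgd5 and Txnip, were lower in the later libraries. The mean of the 3 differences within genotype was formed after the data were seen, and in it 9 of the 35 genes fell and 1, Id1, rose (edgeR quasi-likelihood test, Benjamini-Hochberg adjusted p under 0.05). Over all genes tested 14.4% passed, 5.82% as lower and 8.53% as higher. Shares of all genes passing, here and below, are those of edgeR at an adjusted p under 0.05. They are no background for counts at an unadjusted p or by DESeq2, for which no share of all genes is given. The median log2 difference of the 35 genes was −0.22, and that of all 13630 genes was −0.03; 29 of the 35 genes and 7403 of the 13630 were negative. In mean CPM 19 of the genes were lower at 4 weeks in each of the 3 genotypes and 3 (Tcf15, Nfix and Id1) were higher in each. Every 4 week library was below every 2 week library for 10 of the 35 genes in Il1bKO (8.2% of all genes). This held for 10 in Il1r1KO (7.58%) and 4 in VF (6.99%). Genes that did not pass were among them, such as Gata2, Mllt3 and Tcf4 in Il1bKO. Every 4 week library was above for 0, 1 (Hoxb2) and 0 of the 35 genes (7.65%, 9.17% and 7.39% of all genes). Without VF_4w 6, Il1bKO_4w 5 and Il1r1KO_4w 5 the number passing was 8, with Nkx2-3 and Id1 lost. The median was −0.31 in Il1bKO, −0.26 in Il1r1KO and −0.14 in VF. With each library left out the median in VF ran from −0.343 to 0.002. The value of 0.002 was without VF_4w 6, the lowest library of its group in 26 of the 35 genes. Within single genotypes 2 of the 35 fell in Il1r1KO (2.46% of all genes passed, 1.67% higher and 0.792% lower; DESeq2 6; 0 to 4 with each library left out, 0 without Il1r1KO_4w 5 and 4 without Il1r1KO_4w 7), 0 passed in Il1bKO (0.748%, 0.301% higher and 0.448% lower; 11 at an unadjusted p under 0.05; DESeq2 4) and 0 in VF (0.022%; 5 at an unadjusted p under 0.05; DESeq2 1).

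**Figure D2:**
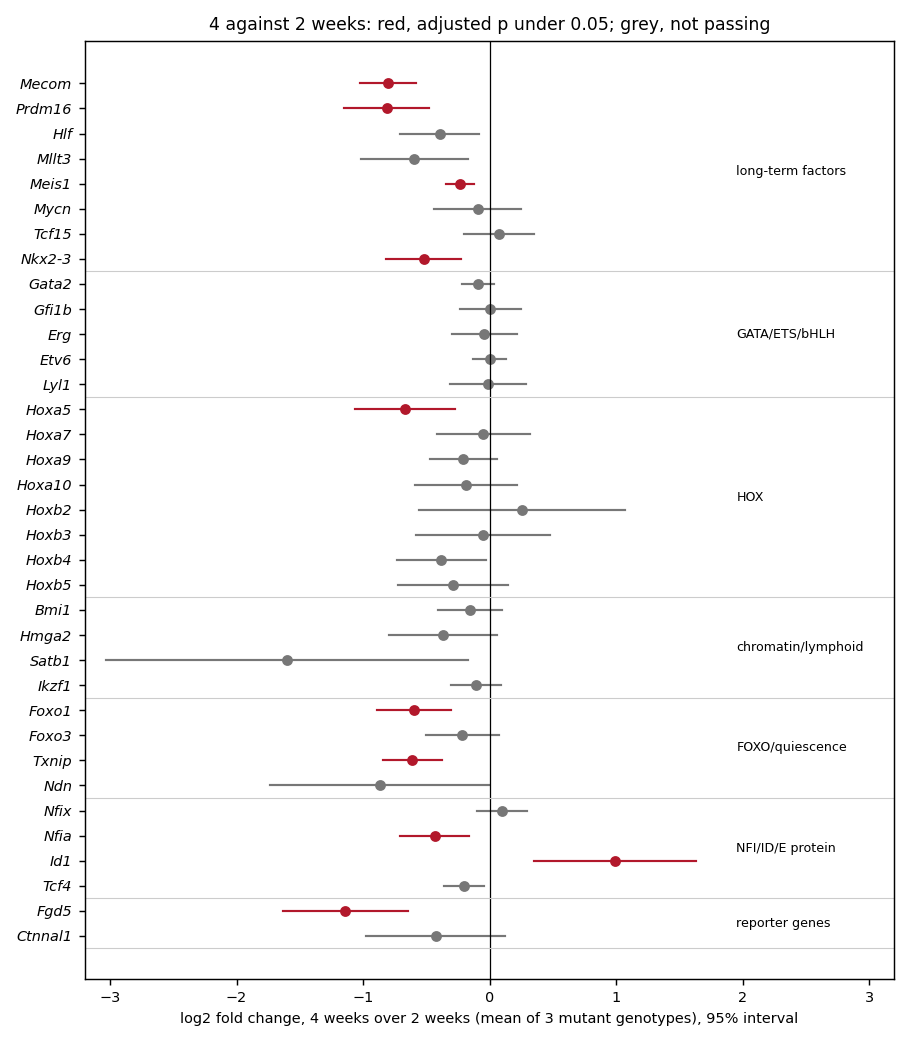
Log2 fold change of each gene, 4 weeks over 2 weeks, as the mean of the 3 mutant genotypes with its 95% interval; genes run down the page in blocks by role, red passing an adjusted p of 0.05 and grey not. Red intervals lie left of 0 for 9 genes, from Fgd5 (−1.14) to Meis1 (−0.23), and right of it for Id1 (0.99).

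Among the 8 long-term stem cell factors, 4 fell (Mecom, Prdm16, Meis1 and Nkx2-3) and the other 4 did not pass. Mecom (ENSMUSG00000027684, chr3:29951296-30548008, mm10), which encodes the zinc finger factor EVI1, had 239.9, 191 and 196 CPM at 4 weeks, against 287, 407, 292 and 287 CPM at 2 weeks in Il1bKO. In Il1r1KO, Mecom had 131, 210.3 and 165 CPM at 4 weeks, against 390.2, 300.0, 376 and 367 CPM at 2 weeks. In VF, Mecom had 224, 146 and 264 CPM at 4 weeks, against 277, 364, 322 and 424 CPM at 2 weeks. Every 4 week library was below every 2 week library of its genotype, which held for no other of the 35 genes and for 0.271% of all genes. Across genotypes the log2 difference was −0.80 (SE 0.11, edgeR adjusted p = 1.56e-04). Within Il1r1KO it was −1.09 (SE 0.19, edgeR adjusted p = 0.0127), and without Il1r1KO_4w 5 it was −0.94 (adjusted p = 0.0912). The Il1bKO and VF differences were −0.61 and −0.71, with adjusted p-values of 0.107 and 0.320.

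Prdm16 (ENSMUSG00000039410, chr4:154316125-154636873), a relative of Mecom that stem cells need to persist, had 49.8, 23.02 and 23.6 CPM at 4 weeks, against 41.6, 70.0, 49.4 and 62.3 CPM at 2 weeks in Il1bKO. In Il1r1KO, Prdm16 had 36.4, 41.0 and 26.8 CPM at 4 weeks, against 66.4, 55.4, 70.9 and 65.4 CPM at 2 weeks. In VF, Prdm16 had 30.6, 26.7 and 35.3 CPM at 4 weeks, against 61.02, 54.3, 54.7 and 37.8 CPM at 2 weeks. The 2 times did not overlap in Il1r1KO and VF, while Il1bKO_4w 5 reached into the 2 week range. Prdm16 fell by 0.81 on the log2 scale (SE 0.16, edgeR adjusted p = 0.00322), with differences of −0.79, −0.89 and −0.75 in Il1bKO, Il1r1KO and VF.

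Meis1 (ENSMUSG00000020160, chr11:18879817-19018985), a homeodomain factor that pairs with HOX proteins, changed little but steadily. In Il1bKO, Meis1 had 513, 462 and 587 CPM at 4 weeks, against 596, 696, 627 and 606 CPM at 2 weeks. In Il1r1KO, Meis1 had 462, 516 and 612 CPM at 4 weeks, against 654, 619.6, 649 and 619.7 CPM at 2 weeks. In VF, Meis1 had 608, 552 and 581 CPM at 4 weeks, against 677, 664, 670.4 and 585 CPM at 2 weeks. The times overlapped only in VF, through VF_2w 4 and VF_4w 5. Its log2 difference was −0.23 (SE 0.05, edgeR adjusted p = 0.00692), the smallest of the 10 that passed.

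Nkx2-3 (ENSMUSG00000044220, chr19:43612325-43615892), an NK homeobox factor, had 28.3, 33.4 and 38.99 CPM at 4 weeks, against 56.5, 77.6, 80.4 and 66.4 CPM at 2 weeks in Il1r1KO. In Il1bKO, Nkx2-3 had 54.3, 64.9 and 45.3 CPM at 4 weeks, against 61.8, 77.1, 46.7 and 74.6 CPM at 2 weeks. In VF, Nkx2-3 had 68.8, 29.7 and 48.9 CPM at 4 weeks, against 60.1, 64.7, 47.2 and 61.4 CPM at 2 weeks. The times did not overlap in Il1r1KO and overlapped in the other 2 genotypes. Within Il1r1KO it fell by 1.06 on the log2 scale (SE 0.25, edgeR adjusted p = 0.0336), a call lost in 8 of 15 alternatives (adjusted p = 0.248 without Il1r1KO_4w 5). The mean of genotypes was −0.52 (adjusted p = 0.0188, and 0.0834 without the 3 libraries named above). Its difference in Il1r1KO minus that in VF was −0.82 (adjusted p = 0.884), and no interaction of genotype and time passed for any of the 35 genes (0.0147% of all genes for Il1bKO and 0% for Il1r1KO).

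Mllt3 (AF9), an elongation factor subunit that maintains human stem cells in culture, stood at −0.60 (adjusted p = 0.0535). The bZIP factor Hlf, which marks stem cells, stood at −0.40 (adjusted p = 0.0827). Mycn (−0.09, 95% interval −0.44 to 0.25) and Tcf15 (0.07, 95% interval −0.21 to 0.35), a bHLH factor of long-term mouse stem cells, lay near 0 with intervals that still allow changes of moderate size. In Mycn 1 library, Il1bKO_4w 5, stood at 839 CPM against 355 and 313 CPM in its replicates.

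Of the 5 GATA, ETS and bHLH factors none passed, and their estimates lay between −0.09 (Gata2) and 0.01 (Gfi1b). Etv6, an ETS repressor that adult stem cells need in the marrow, was at 0.00 (95% interval −0.13 to 0.13). Gata2, a zinc finger factor needed by all blood stem cells, was at −0.09 (95% interval −0.22 to 0.04). These 2 intervals were among the narrowest of the 35 genes and left out changes of the size seen in Mecom. Erg (−0.04), Lyl1 (−0.01) and Gfi1b, a repressor shared with the erythroid and megakaryocyte lineages, had wider ones. Of 10 further factors that work with this group, such as Runx1, Tal1 and Lmo2, 0 passed (median 0.05; lowest p in Cbfa2t3, −0.21, adjusted p = 0.0710).

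Of the 8 HOX genes Hoxa5 fell and 7 did not pass. Hoxa5 (ENSMUSG00000038253, chr6:52201754-52204587) had 12.5, 10.8 and 8.91 CPM at 4 weeks, against 13.4, 24.9, 34.04 and 16.99 CPM at 2 weeks in Il1r1KO. In Il1bKO, Hoxa5 had 12.8, 17.4 and 9.48 CPM at 4 weeks, against 33.6, 18.4, 12.04 and 17.6 CPM at 2 weeks. In VF, Hoxa5 had 14.7, 14.7 and 13.2 CPM at 4 weeks, against 16.9, 17.8, 19.4 and 16.7 CPM at 2 weeks. The times did not overlap in Il1r1KO and VF and did in Il1bKO. Its log2 difference was −0.67 (SE 0.19, edgeR adjusted p = 0.0229), with 0.0529 by limma voom. Hoxb4, which expands stem cells when overexpressed, was at −0.38 (adjusted p = 0.138), and Hoxb5, a marker of long-term mouse stem cells, at −0.29 (adjusted p = 0.385). Hoxa7, Hoxa9, Hoxa10, Hoxb2 and Hoxb3 ran from −0.21 to 0.26. Of 15 other HOX genes and cofactors 3 fell, the low-count genes Hoxb8 (−3.72), Hoxb9 (−4.39) and Meis3 (−2.27).

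None of the chromatin and lymphoid regulators passed. Bmi1, the polycomb subunit that silences Cdkn2a, was at −0.15, Hmga2, an architectural protein of fetal stem cells, at −0.37, and Ikzf1 (Ikaros), which opens lymphoid genes, at −0.11. Satb1, a genome organiser of the lymphoid line, gave −1.60 with an interval of −3.04 to −0.17 (adjusted p = 0.124). Among 12 genes of polycomb repressive complex 1, the complex of Bmi1, 0 passed (median −0.01; lowest p in Phc1, −0.30, adjusted p = 0.0612).

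Of the 4 FOXO and quiescence genes Txnip and Foxo1 fell. Txnip (ENSMUSG00000038393, chr3:96557957-96561883), first among the members in level, had 407, 475 and 411 CPM at 4 weeks, against 476, 806, 726 and 820.4 CPM at 2 weeks in Il1bKO. In Il1r1KO, Txnip had 448, 390.4 and 381 CPM at 4 weeks, against 639, 603, 537 and 592 CPM at 2 weeks. In VF, Txnip had 749, 376 and 522 CPM at 4 weeks, against 691, 707, 963 and 905 CPM at 2 weeks. The times did not overlap in the knockouts, in Il1bKO by the margin of 475.0 against 475.5 CPM, and in VF only VF_4w 5 reached the 2 week range. Txnip fell by 0.61 on the log2 scale (SE 0.11, edgeR adjusted p = 0.00215).

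Foxo1 (ENSMUSG00000044167, chr3:52268336-52353221) had 15.1, 26.3 and 23.1 CPM at 4 weeks, against 32.4, 43.4, 28.9 and 48.7 CPM at 2 weeks in Il1bKO. In Il1r1KO, Foxo1 had 19.95, 16.0 and 29.6 CPM at 4 weeks, against 33.5, 43.4, 34.4 and 31.9 CPM at 2 weeks. In VF, Foxo1 had 34.4, 22.9 and 25.9 CPM at 4 weeks, against 31.97, 36.6, 33.2 and 29.3 CPM at 2 weeks. Only in VF did the times overlap. Its log2 difference was −0.60 (SE 0.14, edgeR adjusted p = 0.00772). Foxo3, the FOXO factor best known for stem cell quiescence, was at −0.22 (95% interval −0.50 to 0.07), and Ndn (necdin), a growth suppressor, at −0.87 (adjusted p = 0.172). Of 13 genes listed as FOXO targets 4 fell: the sestrin Sesn1 (−0.50, adjusted p = 0.00130), Klf2 (−1.48), the PI3K inhibitor Pik3ip1 (−0.68) and Tsc22d3 (−0.75); none rose.

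The NFI, ID and E protein genes divided. Nfia (ENSMUSG00000028565, chr4:97772734-98118874), a nuclear factor I protein, had 86.3, 47.9 and 60.7 CPM at 4 weeks, against 125, 112, 84.7 and 95.2 CPM at 2 weeks in Il1r1KO. In Il1bKO, Nfia had 72.95, 65.1 and 89.1 CPM at 4 weeks, against 111, 142, 86.98 and 82.2 CPM at 2 weeks. In VF, Nfia had 98.6, 44.3 and 70.7 CPM at 4 weeks, against 73.3, 81.9, 78.1 and 79.5 CPM at 2 weeks. The times overlapped in each genotype. Its log2 difference was −0.43 (edgeR adjusted p = 0.0302), a call lost in 5 of 29 alternatives, each leaving out 1 library (highest adjusted p = 0.0704, without VF_4w 6). Its relative Nfix was at 0.10.

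Id1 (ENSMUSG00000042745, chr2:152736251-152737410), an inhibitor of E proteins that BMP signalling induces, had 60.7, 26.6 and 7.26 CPM at 4 weeks, against 12.1, 12.8, 15.9 and 14.1 CPM at 2 weeks in Il1r1KO. In Il1bKO, Id1 had 10.4, 19.1 and 16.1 CPM at 4 weeks, against 12.2, 7.42, 2.44 and 7.82 CPM at 2 weeks. In VF, Id1 had 11.2, 6.66 and 18.3 CPM at 4 weeks, against 4.49, 9.05, 6.34 and 8.86 CPM at 2 weeks. The rise rested on a few libraries, with Il1r1KO_4w 5 highest, and the times overlapped in every genotype. The log2 difference was 0.99 (SE 0.31, edgeR adjusted p = 0.0352), and without Il1r1KO_4w 5 it was 0.69 (adjusted p = 0.141); the call was lost in 9 of 29 alternatives. Tcf4, an E protein that Id1 can bind, was at −0.20 (adjusted p = 0.0846), and Id2, Id3, Tcf3 and Tcf12 did not pass.

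Fgd5 (ENSMUSG00000034037, chr6:91978878-92076004), a gene whose locus drives a stem cell reporter, showed the largest drop among the 10. It had 8.15, 12.4 and 37.04 CPM at 4 weeks, against 39.2, 60.6, 33.5 and 50.9 CPM at 2 weeks in VF. In Il1bKO, Fgd5 had 32.7, 37.2 and 24.9 CPM at 4 weeks, against 64.4, 76.8, 44.8 and 74.4 CPM at 2 weeks. In Il1r1KO, Fgd5 had 17.2, 37.97 and 27.9 CPM at 4 weeks, against 50.99, 67.7, 67.4 and 55.2 CPM at 2 weeks. The times overlapped in VF through VF_4w 7 and not in the knockouts. Fgd5 fell by 1.14 on the log2 scale (SE 0.24, edgeR adjusted p = 0.00414). Ctnnal1 (α-catulin), the other reporter gene, was at −0.43 (adjusted p = 0.305) and ranged in Il1bKO over 7.03, 47.9 and 47.8 CPM at 4 weeks, against 126, 56.6, 76.7 and 86.2 CPM at 2 weeks.

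**Figure D3:**
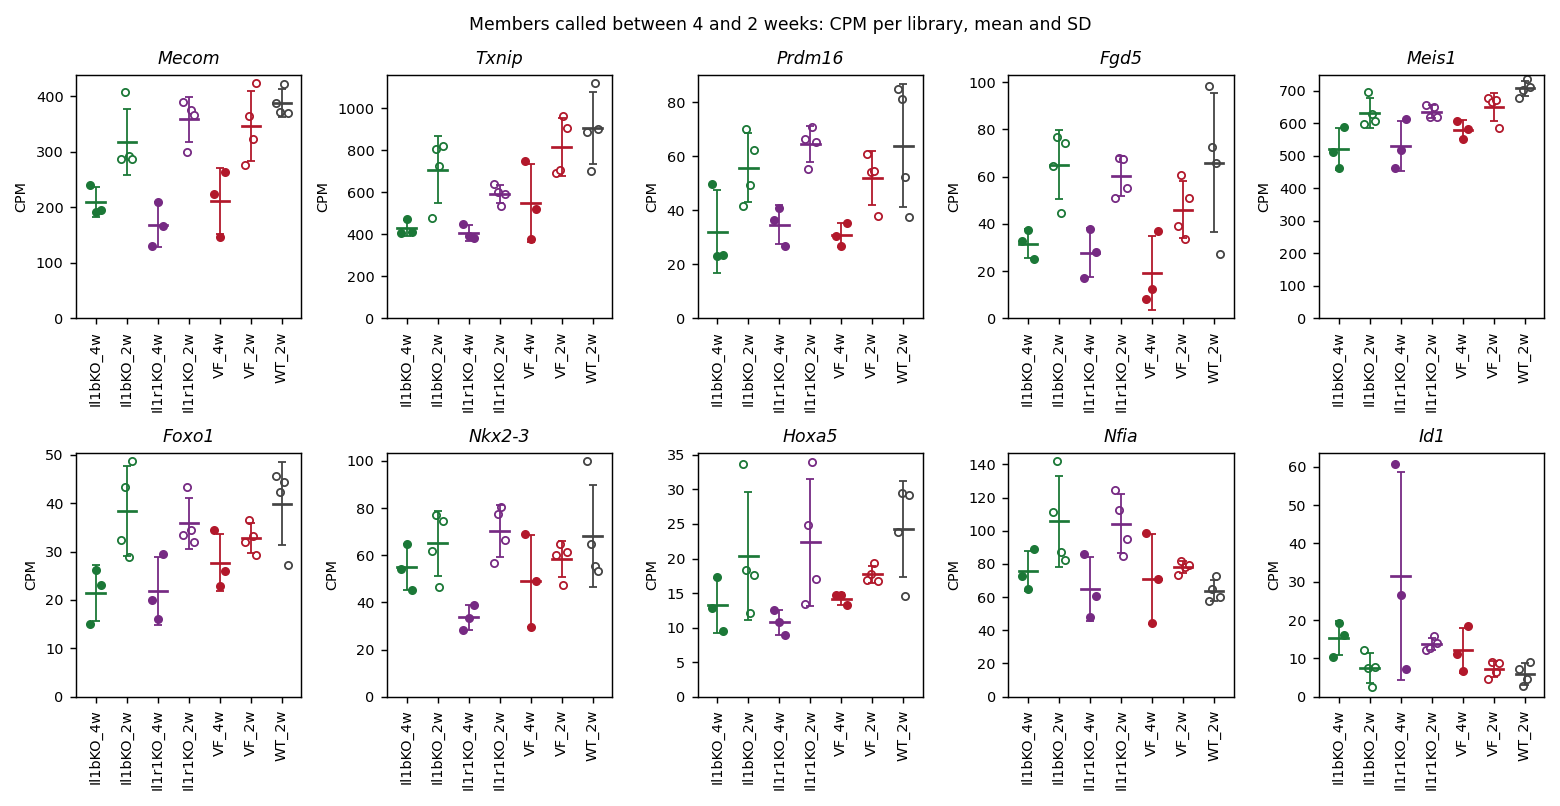
CPM of each library (points), group mean and SD (bars) for the 10 genes that passed between the times; filled points are 4 weeks, open points 2 weeks, 3 libraries a group at 4 weeks and 4 at 2 weeks. In Mecom the 4 week libraries lie between 131 and 264 CPM and the 2 week mutant libraries between 277 and 424, whereas in Id1 the mean at 4 weeks in Il1r1KO rests on a library at 60.7.

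Some further stem cell genes also differed between the times. Of 22 further stem cell genes 5 fell, among them the cell cycle inhibitor Cdkn1c (−0.75) and Kit (−0.29), and 1 rose, Cd48 (1.81, SE 0.38, adjusted p = 0.00393), whose protein the sort gates out. Cd48 ranged over 9.82 to 13.6 CPM at 4 weeks, against 1.43 to 5.33 CPM at 2 weeks in Il1bKO, and over 5.15 to 10.02 against 2.09 to 3.19 CPM in VF. In Il1r1KO the times overlapped, with 4.33 to 17.1 CPM at 4 weeks, against 0.606 to 5.51 CPM at 2 weeks. Slamf1 (CD150), whose protein the sort selects, overlapped between the times in Il1r1KO and VF. In Il1bKO it had 71.7, 86.7 and 60.3 CPM at 4 weeks, against 129, 99.0, 87.5 and 118 CPM at 2 weeks. Ly6a (Sca1) overlapped between the times in each genotype. Among marker genes 3 of 13 erythroid (Gata1, Hba-a2 and Hbb-bs) and 2 of 10 megakaryocyte genes (Pf4 and Gp5) rose, and 0 of 13 neutrophil and monocyte genes passed (median −0.62). Of all genes 8.53% rose. Hba-a2 varied widely at 4 weeks, with 10.3, 4.06 and 0.465 CPM in Il1bKO. It had 0.179, 0.253 and 28.8 CPM in Il1r1KO and 8.80, 0.253 and 49.9 CPM in VF. The summed megakaryocyte level ran over 284 to 465 CPM at 4 weeks, against 295 to 593 CPM at 2 weeks in Il1bKO; over 775 to 979 against 323 to 844 CPM in Il1r1KO; and over 565 to 2420 against 318 to 542 CPM in VF. The summed mast cell, basophil and eosinophil level ran over 12.2 to 53.7 CPM at 4 weeks, against 6.37 to 28.1 CPM at 2 weeks in Il1bKO; over 5.46 to 10.6 against 1.49 to 6.94 CPM in Il1r1KO; and over 10.7 to 63.3 against 4.25 to 8.77 CPM in VF. In the T and NK list Nkg7 rose (1.23) and Klrb1c fell (−1.69), and the median summed level was 93.4 CPM at 4 weeks against 69.1 CPM at 2 weeks in Il1bKO, 93.5 against 75.3 CPM in Il1r1KO and 64.7 against 54.2 CPM in VF. Of the B lineage genes the low-count gene Ighm fell (−4.18, at most 152 reads in a library), and no macrophage, dendritic, endothelial or stromal gene passed. The part of other cells in the differences of the 35 genes was not tested. In bulk RNA, fewer cells with a transcript and less transcript per cell cannot be told apart.

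At 2 weeks, no stem cell regulator passed the test between VF and the libraries labelled WT, which lacked CreERT2 reads as given above (0 of 35; 0.00734% of all genes; 2 of the 35 at an unadjusted p under 0.05; 0 by DESeq2). Most estimates were nonetheless below 0, 28 of 35 with a median of −0.16, against a median of 0.00 over all genes. All 8 long-term factors were negative (median −0.19). Of 13 neutrophil and monocyte markers 12 were positive (median 1.26) and 0 passed, and their part in these estimates was not tested. The 2 of lowest p were Hoxb4 and Mllt3. Hoxb4 had 10.6, 7.11, 5.09 and 7.69 CPM in VF, against 15.3, 13.99, 9.95 and 8.13 CPM in WT (log2 −0.64, 95% interval −1.20 to −0.07). Mllt3 had 187, 239, 188 and 217 CPM in VF, against 525, 315, 335 and 167 CPM in WT (log2 −0.69, 95% interval −1.37 to −0.02). The groups overlapped in both genes, and WT_2w 4 was the lowest WT library of Mllt3.

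Libraries of VF and WT did not overlap in 4 genes. Meis1, Bmi1 and Foxo3 were lower in every VF library (1.80% of all genes were), and Nfia was higher in each (1.87%). Bmi1 had 86.8, 81.4, 80.3 and 88.7 CPM in VF, against 118, 93.9, 108 and 112 CPM in WT (log2 −0.36, adjusted p = 1). Nfia had 73.3, 81.9, 78.1 and 79.5 CPM in VF, against 57.9, 64.9, 72.7 and 60.4 CPM in WT (log2 0.29). These 2 genes also stood apart from WT in both knockouts at 2 weeks, which share the 4 WT libraries with VF. Of all genes 0.257% were lower and 0.183% higher than every WT library in all 3 mutant genotypes. Bmi1 had 86.7, 86.2, 86.4 and 59.6 CPM in Il1bKO and 57.1, 58.2, 81.8 and 79.5 CPM in Il1r1KO. Nfia had 111, 142, 86.98 and 82.2 CPM in Il1bKO and 125, 112, 84.7 and 95.2 CPM in Il1r1KO. Averaged over the 3 mutant genotypes, a contrast added after the data were seen, Bmi1 was at −0.48 (unadjusted p = 0.00540, edgeR adjusted p = 0.933) and Nfia at 0.57 (unadjusted p = 0.00359, adjusted p = 0.815), so neither passed. In that contrast 0 of 35 passed (0.0367% of all genes) and 30 of 35 were negative, all against the same 4 WT libraries. The median was −0.162, and −0.19 to −0.116 with each library left out. WT_2w 1 was the highest WT library in 19 of the 35 genes. Against WT singly, 0 of 35 passed in Il1bKO (0.044%) and 0 in Il1r1KO (0.0587%, 0.0293% in each direction). In Il1r1KO 6 genes were lower than every WT library (Meis1, Etv6, Hoxb2, Bmi1, Foxo3 and Txnip; 2.36% of all genes were), and Hlf stood at −0.71 (adjusted p = 0.593).

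**Figure D4:**
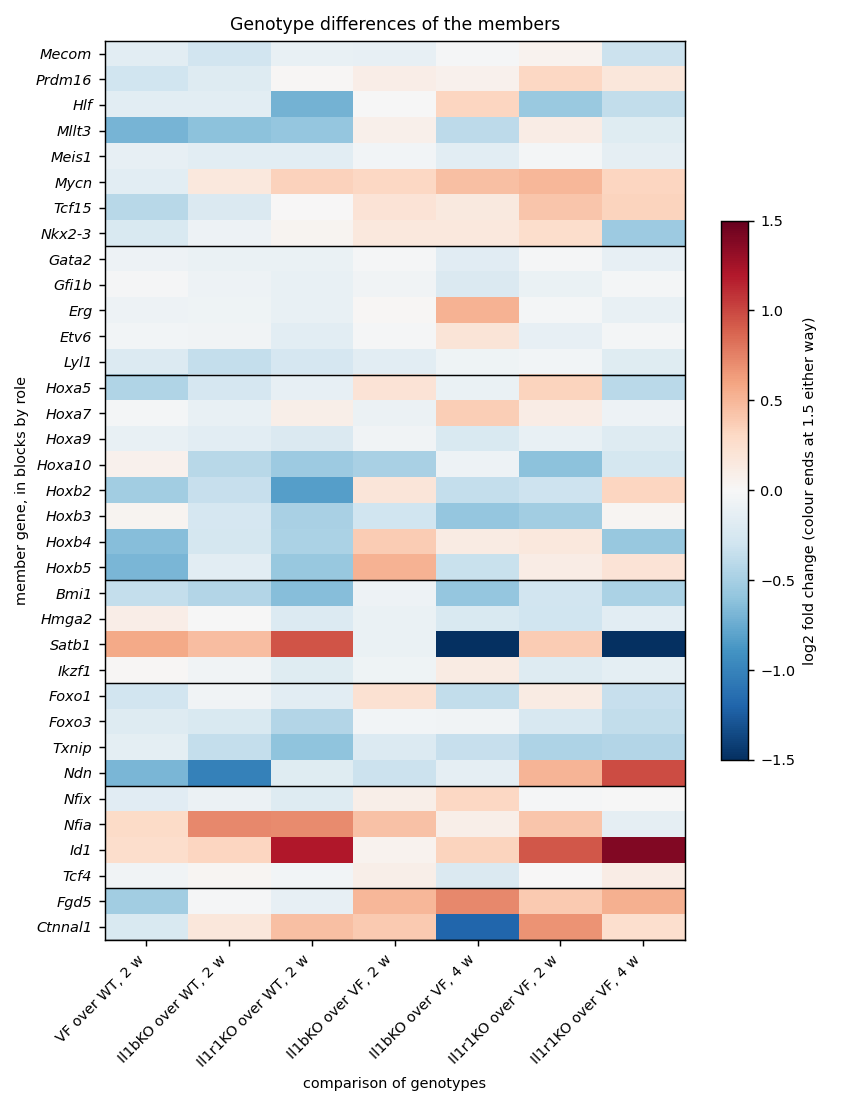
Log2 fold changes of the 35 genes (rows, in blocks by role) in 7 comparisons of genotypes within a time (columns); red is higher and blue lower in the first-named genotype, and the colour ends at 1.5 either way. The 3 columns against WT share the WT libraries and are mostly blue, and the dark cells at 4 weeks are Satb1 (−2.74 and −4.86) and Id1.

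In Il1bKO against VF, which asks what loss of IL-1β adds to the JAK2 mutant, none of the 35 genes passed. The comparison of Il1bKO with VF, as the mean of the differences at 4 and 2 weeks, gave 0 of 35 (0.139% of all genes, 0.022% higher and 0.117% lower; 2 of the 35 at an unadjusted p under 0.05; 0 by DESeq2), with 19 of 35 negative and a median of −0.07 (all genes −0.01), which was 0.061 without VF_4w 5. The lowest p was that of Bmi1 at −0.33 (SE 0.15, edgeR adjusted p = 0.504), and −0.435 to −0.174 with each library left out. At 4 weeks Bmi1 had 30.6, 75.4 and 72.3 CPM in Il1bKO, against 99.8, 87.2 and 79.4 CPM in VF. The lowest of these was Il1bKO_4w 5, but the other 2 Il1bKO libraries were also below VF. At 4 weeks 3 of the 35 genes were lower in every Il1bKO library (Bmi1, Satb1 and Ctnnal1), against 7.3% of all genes. There 1 was higher in each (Etv6), against 5.72% of all genes. Fgd5 had the second lowest p, at 0.61 (SE 0.29, edgeR adjusted p = 0.518). Fgd5 had 32.7, 37.2 and 24.9 CPM in Il1bKO, against 8.15, 12.4 and 37.04 CPM in VF at 4 weeks, and the groups overlapped through VF_4w 7. At 2 weeks and at 4 weeks taken singly 0 of 35 passed (0.00734% of all genes at 2 weeks and 0.125% at 4 weeks, 0.0367% higher and 0.088% lower). The 95% intervals of Gata2 (−0.25 to 0.06), Meis1 (−0.23 to 0.04) and Etv6 (−0.07 to 0.25) bound what these data could have missed in the steadiest genes.

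Il1bKO_4w 5 stood apart from all other libraries, at 224.5 on the first principal component of all genes against −36.2 to 17.3, and members lay on both sides of its replicates. Hoxb2 was at 0.452 CPM there (18 reads), against 53.8 and 24.1 CPM in the replicates. Ctnnal1 stood at 7.03 CPM, against 47.9 and 47.8 CPM. Erg and Hoxa7 were higher there, at 124 and 88.04 CPM. It was the lowest of its 3 libraries in 15 of the 35 genes and the highest in 14.

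In Il1r1KO against VF, where the receptor is lost in place of the ligand and the same VF libraries serve, none passed either (0 of 35; 0.169% of all genes, 0.0293% higher and 0.139% lower; 6 of the 35 at an unadjusted p under 0.05; 0 by DESeq2). Txnip had the lowest p at −0.45 (SE 0.14, edgeR adjusted p = 0.225). At 4 weeks Txnip had 448, 390.4 and 381 CPM in Il1r1KO, against 749, 376 and 522 CPM in VF. At 2 weeks it had 639, 603, 537 and 592 CPM in Il1r1KO, against 691, 707, 963 and 905 CPM in VF. The groups did not overlap at 2 weeks, and at 4 weeks only VF_4w 6 was as low as Il1r1KO. At 2 weeks Hoxa10 was likewise lower in every Il1r1KO library, as were 2.09% of all genes. Without VF_4w 6 the log2 difference was −0.55 (edgeR adjusted p = 0.044). With each library left out it ran from −0.553 to −0.303, and Txnip passed in 2 of 23 alternatives. The 13 FOXO targets were all negative in the same comparison (median −0.44) and none passed, the lowest p being that of Pik3ip1 (−0.93, adjusted p = 0.105). At 4 weeks the summed level of these targets was 887 to 891 CPM in Il1r1KO. In VF it was 2811, 1030 and 1527 CPM, and the highest was VF_4w 5. At 2 weeks the sums overlapped, with 1280 to 1602 CPM in Il1r1KO against 1428 to 1873 CPM in VF.

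Id1 was second at 1.16 (SE 0.39, edgeR adjusted p = 0.265). At 2 weeks Id1 had 12.1, 12.8, 15.9 and 14.1 CPM in Il1r1KO, against 4.49, 9.05, 6.34 and 8.86 CPM in VF. At 4 weeks it had 60.7, 26.6 and 7.26 CPM in Il1r1KO, against 11.2, 6.66 and 18.3 CPM in VF. The groups did not overlap at 2 weeks and did at 4 weeks. At 2 weeks Nfia was likewise higher in every Il1r1KO library, as were 1.92% of all genes. Satb1 at 4 weeks had 0, 0.434 and 0.191 CPM in Il1r1KO, against 11.2, 3.04 and 4.62 CPM in VF. All VF libraries were above all Il1r1KO libraries, at read numbers where a fitted fold depends on the prior (edgeR adjusted p = 0.174). Within 4 weeks 4 genes did not overlap, all lower in Il1r1KO (Hoxa5, Hoxb4, Bmi1 and Satb1; 6.65% of all genes were), and 0 of 35 passed (0.147%); within 2 weeks 0 passed (0.0514%).

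The 2 knockouts were also set against each other. Between Il1bKO and Il1r1KO 0 of 35 passed (0.176% of all genes, 0.11% higher and 0.066% lower; 6 of the 35 at an unadjusted p under 0.05; DESeq2 1). Hlf had 421, 254 and 317 CPM in Il1bKO, against 161, 191 and 264 CPM in Il1r1KO at 4 weeks. At 2 weeks Hlf had 327, 472, 400.1 and 365 CPM in Il1bKO, against 318, 366, 207 and 177 CPM in Il1r1KO. The groups overlapped at both times, through 1 library of each genotype at 4 weeks. The log2 difference was 0.62 (SE 0.18, edgeR adjusted p = 0.207, DESeq2 adjusted p = 0.0488). Ctnnal1 followed at −0.87 (edgeR adjusted p = 0.255), and −1.027 to −0.623 with each library left out. Ctnnal1 had 7.03, 47.9 and 47.8 CPM in Il1bKO, against 117, 109 and 54.2 CPM in Il1r1KO at 4 weeks, which did not overlap. At 2 weeks it had 126, 56.6, 76.7 and 86.2 CPM in Il1bKO, against 89.1, 42.9, 130.3 and 159.6 CPM in Il1r1KO, which did.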

How the data were processed

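Hematopoietic stem cells were sorted into PicoPure buffer, and 25 unstranded polyA libraries were made with SMART-Seq v4, per the labels' protocols. The authors deposited raw read counts per gene; the submitters' processing notes name mm10, STAR 2.7.10a, featureCounts, FastQC 0.11.5 and R 4.2.2, and the gene annotation is not given in the sources used here. Coordinates are those of GENCODE vM21. A single edgeR 4.0.16 quasi-likelihood fit (R 4.3.3, TMM scaling, filterByExpr, robust) covered the 7 groups and 13630 genes, with Benjamini-Hochberg adjustment over all of them and a threshold of 0.05. The pipeline was tested on simulated data. DESeq2 1.42.0 and limma 3.58.1 served as alternatives. No 2 replicate libraries agreed within sampling noise. The members and lists were chosen with earlier results of these data known, and the 2 contrasts averaged over mutant genotypes were added after the data were seen. Every member in the table was described; per-library values were given for members that passed in any comparison and for the 2 of lowest p in each of the 4 main genotype comparisons, and for others chosen after their values were seen. Genes of other lists were named mostly where they passed or had the lowest p in their list, and not every gene that passed was named. Promoter windows are RefSeq sequences.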

Additional observations from a re-analysis of the deposited data

Results flagged for a closer look

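In 10 of 140 groups of 4 libraries, 1 library stood far from the other 3, where chance gives about 1 in 20 for independent, normally distributed values. Whether 10 exceeds chance was not tested. The 4 week groups, of 3 libraries each, were not checked by this rule. Of the 10, 4 were in Il1bKO at 2 weeks. Mecom was at 407 CPM in Il1bKO_2w 2, against 286.5 to 291.8 CPM in its replicates. Hoxa10 was at 90.95 CPM in Il1bKO_2w 4, against 58.29 to 63.77. Bmi1 was at 59.63 CPM in the same library, against 86.22 to 86.69. Ikzf1 was at 85.85 CPM in Il1bKO_2w 1, against 109.6 to 111.9.

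In VF at 2 weeks, Meis1 was at 584.7 CPM in VF_2w 4, against 664.2 to 676.6 in its replicates, and Hoxa10 was at 128.3 CPM in that library, against 86.12 to 86.79. Mycn was at 523.4 CPM in VF_2w 2, against 333 to 357.4. Erg was at 75.9 CPM in VF_2w 1, against 57.82 to 60.07. Tcf15 was at 30.87 CPM in Il1r1KO_2w 2, against 39.65 to 41.39. Foxo3 was at 48.13 CPM in WT_2w 3, against 45.76 to 46.09.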

How the results depend on the processing

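The number of the 35 genes passing between 4 and 2 weeks over the mutants, 10, ran from 8 to 13 over 29 alternatives. In Il1bKO between the times, 0 passed; DESeq2 gave 4, the fit without VF_4w 6, Il1bKO_4w 5 and Il1r1KO_4w 5 gave 2, and leaving out each library gave 0 to 1. In Il1r1KO the 2 became 6 by DESeq2, 1 in a fit of those groups alone and 0 to 4 with each library left out, 0 being without Il1r1KO_4w 5. In VF the 0 became 1 by DESeq2. Between Il1r1KO and VF the 0 became 1 by limma voom, 2 without the 3 libraries and 0 to 1 with each library left out, 1 being without VF_4w 6; at 4 weeks alone it became 1 by DESeq2 and 1 without the 3 libraries. Between Il1bKO and Il1r1KO it became 1 by DESeq2. The causes of these shifts were not tested. No log2 difference of a gene recomputed under these alternatives changed sign. Medians of the 35 genes did: without VF_4w 5 they were 0.061 for Il1bKO against VF, 0.057 for the same at 4 weeks and 0.071 for Il1r1KO against VF at 4 weeks, without VF_4w 6 the median was 0.002 for VF between the times, and 3 medians nearer 0 or of interactions crossed it as well. Replicate numbers did not mark pairs: 33 pairs of libraries with the same number in 2 groups had correlations of deviations from −0.148 to 0.08, and 90 with different numbers from −0.118 to 0.174. With the replicate number as a block, 0 of the 35 genes passed in each of the 13 comparisons in which groups share numbers; between the times numbers are not shared. Satb1 had few reads (0 to 295 per library) and also a wide spread between replicates, with an SD within groups of 1.53 on the log2 scale.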

Other observations

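Tal1 (Scl), a bHLH partner of Gata2 and Lyl1 and the gene after which the Cre driver is named, was the member of the partner list that passed against WT at 2 weeks. It was higher in Il1bKO (log2 0.67, SE 0.11, edgeR adjusted p = 0.0137) and in Il1r1KO (log2 0.64, SE 0.11, adjusted p = 0.0224), and in VF the difference was 0.38 (adjusted p = 1). At 2 weeks the libraries ran from 86.13 to 102.5 CPM in Il1bKO, from 88.84 to 100.7 CPM in Il1r1KO and from 74.27 to 88.24 CPM in VF, against 57.27 to 62.93 CPM in WT. These comparisons share the 4 WT libraries. The 4 WT libraries held 0, 0, 1 and 0 CreERT2 reads, and the relation of the 2 measures was not tested.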
